A study of Mus musculus with 8 samples.

Results

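The genes described here carry the signal of leukaemia inhibitory factor (LIF) into mouse embryonic stem cells (ESCs) and limit it. They are the receptor chains Lifr and Il6st, the Janus kinases Jak1, Jak2 and Tyk2, the transcription factors Stat3 and Stat5a, the feedback inhibitors Socs2 and Socs3, and the kinase gene Pim1. All 10 were chosen by name as a known signalling route, with earlier results of these data known, and each matched 1 of the 38991 genes in the data. RNA was sequenced from RGd2 ESCs (cell line Rex1GFPd2, strain 129, at passage 11), a line that carries a destabilised GFP reporter at Rex1. Derivation and the first 6 passages took place in 2i, which is CH (the GSK3 inhibitor CHIR99021, 3 µM) together with PD (the MEK inhibitor PD0325901, 1 µM), and the cells were then kept for 5 passages in serum-free N2B27 medium on gelatin in 1 of 4 conditions. These were 2i+LIF (CH, PD and LIF), 2i (CH and PD without LIF), CH+LIF (no PD) and LIF+PD (no CH), with 2 cultures of each and 8 in all. Since 2i holds no LIF, LIF was added in the other conditions and was not removed from the 2i cultures. Withdrawal of LIF is used below as a name for the comparison of 2i with 2i+LIF. All 8 cultures came from a single line, and the labels do not say that the 2 cultures of a condition were kept apart through the 5 passages, so p-values measure the spread between these cultures, which may be technical.

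LIF binds Lifr, which pairs with the shared signalling chain gp130, the product of Il6st. Janus kinases bound to the receptor tails then phosphorylate Stat3, which enters the nucleus as a dimer and activates genes that hold back differentiation. Socs3 is one of these genes, and its protein binds gp130 and the kinases and shuts the signal down, so its mRNA is widely used as a readout of Stat3 activity. RNA levels do not report phosphorylation.

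STAT dimers bind a palindrome that is TTC and GAA around a spacer of 3 bases. The sequence before the Socs3 start is shown because Socs3 was the gene in the set that differed most between conditions. These are the 250 bases upstream of the RefSeq start in GRCm38.p6, chr11:117969367-117969616 on the minus strand, with the match to TTCNNNGAA in capitals.
Socs3: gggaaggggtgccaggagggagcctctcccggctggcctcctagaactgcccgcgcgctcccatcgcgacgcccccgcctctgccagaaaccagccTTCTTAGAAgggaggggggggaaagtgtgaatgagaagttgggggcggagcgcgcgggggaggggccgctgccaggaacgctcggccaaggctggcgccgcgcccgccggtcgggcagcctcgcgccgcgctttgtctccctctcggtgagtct
The match begins at position -154 (chr11:117969512-117969520). In the GENCODE M21 annotation the coding transcript of Socs3 starts 334 bases downstream of the first base of the match, and the printed window overlaps no coding or UTR part of the gene and 1 exon of a non-coding transcript. The motif reads the same on both strands, and it was searched in windows from 250 bases before to 50 after each RefSeq start. RefSeq windows were found for 9 of the 10 genes, all except Socs2, and 1 of those 9, Socs3, held a match. Of all 32851 windows, 8.30% held one, so that a match in a window is a description of letters and not evidence of binding.

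Expression is given as FPKM, in which fragments are divided by transcript length and by library size, so that levels of different genes may be compared. Differences are given as fold changes of mean FPKM and as differences in log2(FPKM + 1), a scale on which changes of weakly expressed genes come out smaller. A gene was called higher or lower at a Benjamini-Hochberg adjusted p below 0.05 in limma, over the 12927 genes that reached an FPKM of 1 in 2 or more cultures, and all 10 passed that filter. The number of reads is not part of FPKM values. Relative to replicate 1 of 2i+LIF, depth was estimated at 0.5 in replicate 1 of 2i and at 0.908 to 1.19 in the others. All 8 naive markers (Pou5f1, Sox2, Nanog, Zfp42, Esrrb, Dppa5a, Tbx3 and Fgf4) had an FPKM of at least 1 in every culture. Of these, Esrrb, Tbx3 and Fgf4 were lower in 2i than in 2i+LIF (log2 differences -0.49, -0.83 and -0.63, limma adjusted p = 0.0219, 0.0125 and 0.0033). Without CH, Esrrb was lower (-0.42, adjusted p = 0.0297) and Zfp42 higher (0.32, adjusted p = 0.0381). Without PD, Sox2, Nanog and Fgf4 were lower (-0.48, -0.80 and -0.82, adjusted p = 0.0230, 0.00366 and 0.00129). The sum of 5 primed epiblast markers was 41.1 and 44.0 in 2i+LIF and between 87.0 and 120.4 in the other cultures. Of these, Otx2 and Lef1 were called higher without LIF (log2 differences 2.34 and 2.49), while Pou3f1 and Dnmt3b were not (limma adjusted p = 0.681 and 0.0707). Otx2 (4.03) and Pou3f1 (1.61) were called higher without CH, and Lef1 (1.88) and Dnmt3b (0.95) without PD. Fgf5 did not pass the filter. The summed FPKM of markers was 8.40 to 47.5 for mesoderm and endoderm (5 genes), 17.6 to 54.1 for trophoblast (5), 1.44 to 4.97 for primitive endoderm (6) and 0.270 to 17.1 for fibroblasts (7), with Col3a1, Dcn and Lum at 0 in all cultures. Single markers within these sums differed by condition, in both directions. Without LIF, Eomes (log2 difference 1.00) was called higher and Gsc (-2.21) lower. Without CH, Tfap2c (1.00) and Dab2 (0.97) were called higher and T (-2.14) and Cdx2 (-3.23) lower. Without PD, T (2.37) and Eomes (2.04) were called higher and Gsc (-2.34), Cdx2 (-2.16) and Tfap2c (-0.53) lower. The highest fibroblast sum held 14.1 FPKM of Postn in replicate 2 of CH+LIF, where replicate 1 had 0. Thy1, at a mean of 0.138 FPKM in 2i+LIF, was called higher in each withdrawal (means 1.17 to 2.90). In bulk RNA a change in the share of cells and a change within cells cannot be told apart, and the part of all these markers in the results below was not tested.

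**Figure D1:**
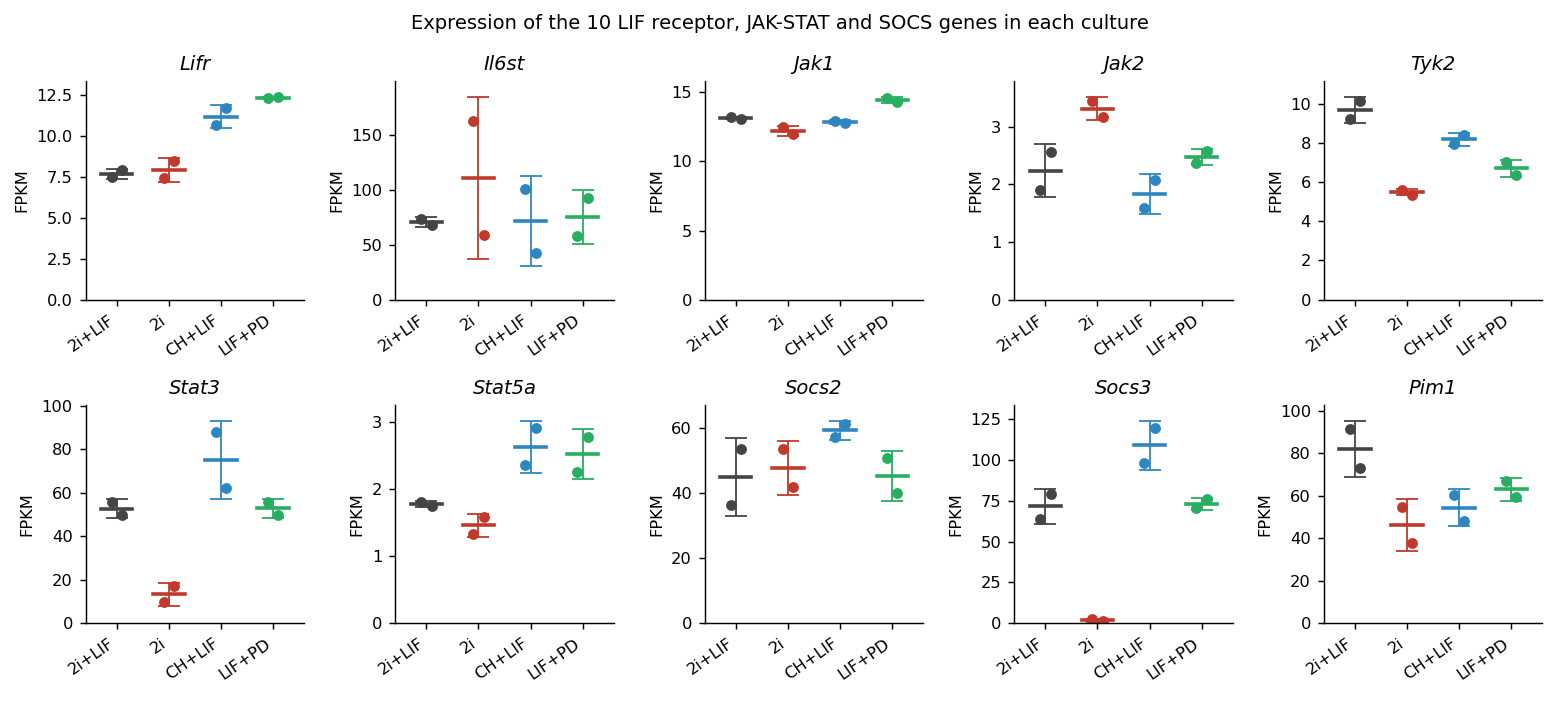
FPKM (vertical axes, linear, each from 0) of the 10 genes in the 2 cultures of each condition (points), with the condition mean (thick bar) and SD (thin bars, n = 2). Socs3 and Stat3 sit far lower in the 2 cultures of 2i than in the 6 cultures with LIF, while Il6st varies between cultures of the same condition.

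Withdrawal of LIF names the comparison of 2i with 2i+LIF at the same CH and PD. The 2i cultures had been in 2i throughout, so fell and drop below mean a lower level in 2i and not a loss over time. Socs3 and Stat3 were strongly lower in 2i, and Tyk2 and Pim1 modestly. Of the 10 genes 4 were called lower and 0 higher, where 18.6% of all genes tested were called in either direction. At an unadjusted p below 0.05 there were 4 lower and 1 higher, the last being Jak2. No share over all genes is given at that threshold, here or below, so such counts cannot be set against the 18.6%. The median log2 difference of the 10 genes was -0.14, against 0.04 over all genes tested. Socs3, Stat3 and Tyk2 were called with any 1 culture left out, whereas Pim1 was not.

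Of the receptor chains, Lifr, which binds LIF directly (chr15:7129559-7197489), was expressed at 7.49 and 7.92 FPKM in 2i+LIF and at 7.43 and 8.46 in 2i. It stood at 10.7 and 11.7 in CH+LIF and at 12.3 and 12.4 in LIF+PD. Thus all 4 cultures that lacked an inhibitor were above all 4 that held both. LIF was present in all 4 that lacked an inhibitor, and it differed only among those that held both. Without CH, Lifr was 1.60-fold higher than in 2i+LIF (log2 difference 0.62, SE 0.11, adjusted p = 0.00749), and without PD it was 1.45-fold higher (log2 difference 0.49, SE 0.11, adjusted p = 0.0188). The first call remained with any 1 culture left out, the weakest being without replicate 1 of 2i+LIF (adjusted p = 0.05 after rounding). The second was lost without either replicate of 2i+LIF (adjusted p = 0.0951 and 0.0666) or of CH+LIF (0.0579 and 0.0900). Without LIF, the log2 difference of Lifr was 0.04 (95% interval -0.22 to 0.30, adjusted p = 0.843). Compared directly, Lifr was lower in 2i than in LIF+PD (log2 difference -0.58, adjusted p = 0.00885) and than in CH+LIF (-0.45, adjusted p = 0.0260). The call against CH+LIF was lost without replicate 1 of 2i (adjusted p = 0.110) or either replicate of CH+LIF (0.0686 and 0.118). LIF+PD and CH+LIF did not differ beyond their spread (adjusted p = 0.405).

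Il6st, the chain that Lifr shares with the receptors of interleukin 6 and related cytokines, was the least reproducible gene of the set. Its FPKM was 73.8 and 67.6 in 2i+LIF, 163 and 58.8 in 2i, 100.3 and 42.7 in CH+LIF, and 57.9 and 92.7 in LIF+PD. The cultures of every pair of conditions overlapped, and the higher culture of 2i held 2.77 times the FPKM of the lower. The bounds that the authors deposited with each value were wide for this gene, from 90.6 to 235 for the highest culture. With an SE of 0.54 the log2 difference without LIF, 0.47, had a 95% interval from -0.80 to 1.73, so that changes of that size were not detectable. No comparison gave an adjusted p below 0.476.

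The 3 kinases behaved differently. Jak1, the kinase most often tied to gp130 signalling, was nearly constant, at 13.2 and 13.1 FPKM in 2i+LIF, 12.5 and 11.9 in 2i, 13.0 and 12.8 in CH+LIF, and 14.6 and 14.3 in LIF+PD. Its 2 cultures never differed by more than 1.04-fold, and its condition means spanned 1.18-fold. No comparison called it, the smallest adjusted p being 0.106 for 2i against LIF+PD.

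Tyk2, a further kinase that gp130 can engage (chr9:21104069-21127346), was highest in 2i+LIF (9.21 and 10.1 FPKM), followed by CH+LIF (7.97 and 8.43), LIF+PD (7.02 and 6.38) and 2i (5.61 and 5.37). No 2 conditions overlapped, although no neighbours in that order passed the test (adjusted p = 0.206, 0.127 and 0.158). Without LIF it fell 1.76-fold (log2 difference -0.72, SE 0.11, adjusted p = 0.00589). Without CH it was 1.44-fold lower (log2 difference -0.47, adjusted p = 0.0228), a call lost without either replicate of 2i+LIF (adjusted p = 0.0642 and 0.120) or of LIF+PD (0.0617 and 0.111). Tyk2 was also lower in 2i than in CH+LIF (log2 difference -0.50, adjusted p = 0.0195), and this was lost without either replicate of 2i (0.0583 and 0.0676) or of CH+LIF (0.0682 and 0.0893).

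Jak2, which serves many cytokine receptors, was weakly expressed. Its FPKM was 1.91 and 2.57 in 2i+LIF, 3.46 and 3.18 in 2i, 1.60 and 2.09 in CH+LIF, and 2.38 and 2.57 in LIF+PD. Both cultures of 2i were above the 6 others. The log2 difference without LIF was 0.42 (adjusted p = 0.126), and 2i was above CH+LIF by 0.61 (adjusted p = 0.0378). That call was lost when either replicate of 2i, of CH+LIF or of LIF+PD was left out, with adjusted p up to 0.177.

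Stat3 (ENSMUSG00000004040, chr11:100885098-100939540 on the minus strand) was expressed at 55.9 and 49.6 FPKM in 2i+LIF and at 9.69 and 17.1 in 2i. In CH+LIF it stood at 87.8 and 62.3, and in LIF+PD at 56.0 and 49.6. Both cultures of 2i were below all cultures with LIF, and the values of LIF+PD lay on those of 2i+LIF. Mean FPKM was 52.8 ± 4.48 in 2i+LIF and 13.4 ± 5.27 in 2i (SD, n = 2). The drop without LIF was 3.93-fold (log2 difference -1.95, SE 0.26, adjusted p = 0.0031). It ranged from -1.56 without replicate 1 of 2i, the culture of lowest estimated depth, to -2.33 without replicate 2. Withdrawal of CH left a log2 difference of 0.0014 (95% interval -0.61 to 0.61), and withdrawal of PD gave 0.48 (-0.13 to 1.09, adjusted p = 0.214). Stat3 was likewise lower in 2i than in LIF+PD, by 3.94-fold (adjusted p = 0.00222), and than in CH+LIF, by 5.59-fold (adjusted p = 0.00117). The deposited FPKM of Stat3 lay above its own upper bound in replicate 1 of CH+LIF (77.7) and of LIF+PD (53.5).

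Stat5a, which lies next to Stat3 on chromosome 11 and transmits signals of other cytokines, was close to the detection filter. It was measured at 1.81 and 1.75 FPKM in 2i+LIF, 1.34 and 1.59 in 2i, 2.36 and 2.91 in CH+LIF, and 2.26 and 2.79 in LIF+PD. The annotated ends of Stat3 and Stat5a overlap by 72 bases on opposite strands, and while the methods give strand-aware counting for read counts, which were not used here, they do not say whether the FPKM values used strand. Stat5a was lower in 2i than in CH+LIF (log2 difference -0.56, adjusted p = 0.0429), a call lost with any 1 of the 8 cultures left out (adjusted p 0.0562 to 0.183). Without LIF the difference was -0.18 (95% interval -0.55 to 0.20).

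Socs3 (ENSMUSG00000053113, chr11:117966079-117970047 on the minus strand) gave the clearest contrast. It was expressed at 63.9 and 79.0 FPKM in 2i+LIF, and at 2.59 and 1.29 in 2i. In CH+LIF it reached 98.2 and 119 FPKM, and in LIF+PD 70.3 and 75.7. The lowest culture with LIF held 63.9 FPKM and the highest without it 2.59. Without LIF the mean fell 36.9-fold, from 71.5 ± 10.7 to 1.94 ± 0.914 (SD, n = 2; log2 difference -4.65, SE 0.22, adjusted p = 5.3e-05). Only 3 of the 12927 genes tested decreased by more on the log2 scale. Without 1 culture of either condition the difference ranged from -4.33 to -4.97.

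Socs3 was also 37.7-fold lower in 2i than in LIF+PD (adjusted p = 3.9e-05) and 56.1-fold lower than in CH+LIF (adjusted p = 3.4e-05). Set against the 3 conditions with LIF at equal weight, 2i was 43.5-fold lower (log2 difference -4.86, adjusted p = 1.6e-05). Loss of CH left a log2 difference of 0.04 (95% interval -0.47 to 0.55). Loss of PD gave 0.60 (0.09 to 1.11, adjusted p = 0.0850), with both cultures of CH+LIF above all others. That value passed the test without replicate 1 or replicate 2 of 2i (smallest adjusted p 0.0289) and did not pass with all 8 cultures.

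Socs2, a related inhibitor best known for restraining growth hormone signalling, did not follow Socs3. Its FPKM was 36.5 and 53.6 in 2i+LIF, 53.6 and 42.0 in 2i, 57.4 and 61.4 in CH+LIF, and 50.9 and 40.0 in LIF+PD. Both values of CH+LIF were the highest, while the other 3 conditions overlapped. The log2 difference without LIF was 0.10 (95% interval -0.39 to 0.58, adjusted p = 0.778), and no comparison called the gene. In 2i, mean FPKM was 47.8 for Socs2 and 1.94 for Socs3.

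Pim1, a survival kinase gene long known as a STAT target, was highest in 2i+LIF (91.4 and 72.8 FPKM). It stood at 66.9 and 59.2 in LIF+PD, 60.4 and 48.3 in CH+LIF, and 54.9 and 37.7 in 2i. Both cultures of 2i+LIF were above the 6 others, which overlapped in part. In every condition replicate 1 was above replicate 2. Without LIF it fell 1.77-fold (log2 difference -0.83, SE 0.20, adjusted p = 0.0310). The call was lost, with the difference still below 0, without replicate 1 (log2 difference -0.67, adjusted p = 0.153) or replicate 2 (-0.99, adjusted p = 0.0620) of 2i+LIF or without replicate 2 of 2i (-0.56, adjusted p = 0.114). The difference was -0.59 without PD (adjusted p = 0.0749) and -0.37 without CH (adjusted p = 0.225). Set against LIF+PD and CH+LIF, 2i gave -0.46 (adjusted p = 0.145) and -0.24 (adjusted p = 0.422).

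**Figure D2:**
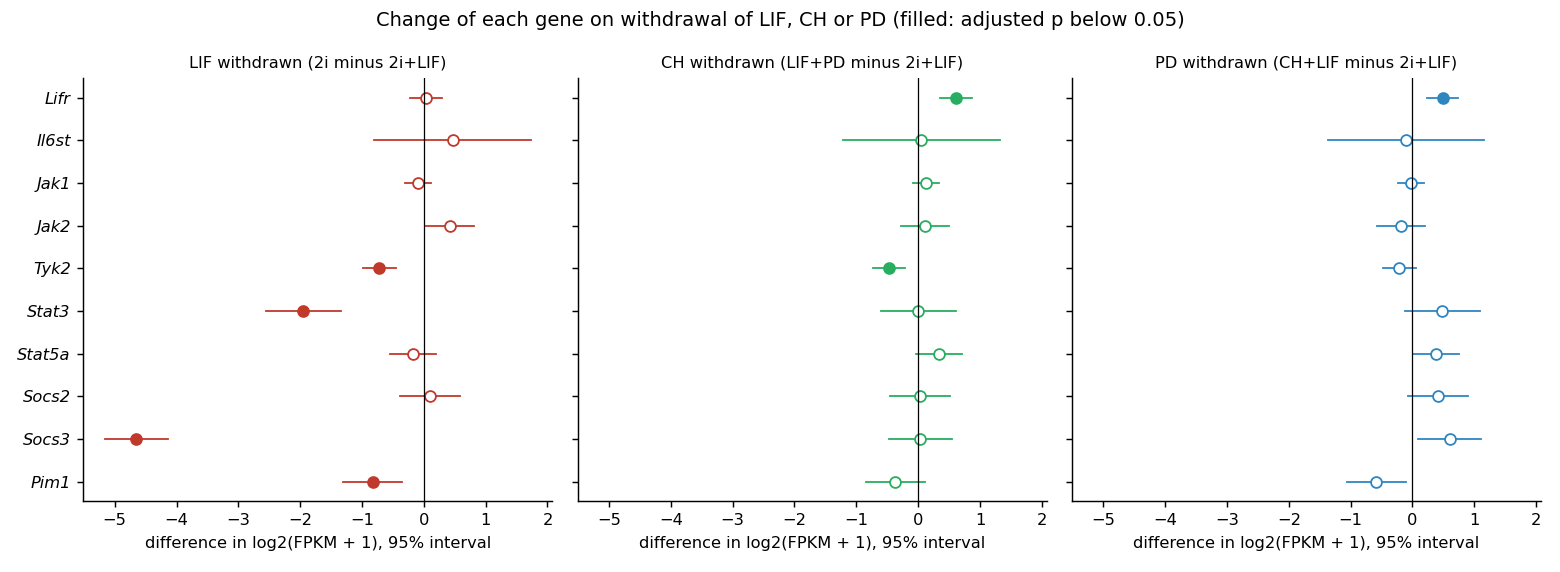
Difference in log2(FPKM + 1) from 2i+LIF (horizontal axes) with its 95% interval for each of the 10 genes in the conditions without LIF, CH or PD, filled where the adjusted p was below 0.05. Socs3 (-4.65) and Stat3 (-1.95) stand apart on the left without LIF, and Lifr lies to the right without CH (0.62) or PD (0.49).

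The withdrawal of CH, which takes away GSK3 inhibition, called 1 of the 10 genes higher (Lifr) and 1 lower (Tyk2), where 25.2% of all genes tested were called. The median log2 difference of the 10 was 0.04, against 0.03 over all genes. Withdrawal of PD, which releases MEK, called 1 higher (Lifr) and 0 lower, where 25.4% of all genes were called. The median of the 10 was 0.18, against 0.01. At an unadjusted p below 0.05 there were 3 higher (Lifr, Stat5a and Socs3) and 1 lower (Pim1), a threshold to which the 25.4% does not apply. When each culture was rescaled to the same sum (TPM), the median over all genes moved to 0.16 without CH and 0.19 without PD. Lifr was called in both under TPM (log2 differences 0.75 and 0.68), and relative to those medians it was 0.60 and 0.50 higher. Tyk2 without CH lost its call under TPM (log2 difference -0.36, adjusted p = 0.0985), while relative to the median over all genes it was -0.51 on both scalings.

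Since the 3 withdrawals share the 2i+LIF cultures, the conditions were also set directly against each other. Between 2i and LIF+PD, 3 of the 10 genes were lower in 2i (Lifr, Stat3 and Socs3), where 25.1% of all genes were called. Between 2i and CH+LIF, 5 were lower in 2i (Lifr, Tyk2, Stat3, Stat5a and Socs3) and 1 was higher (Jak2), where 23.9% of all genes were called. With only the cultures of those conditions in the fit, 2 of these 6 were called, Socs3 and Stat3. Between CH+LIF and LIF+PD, which both contain LIF, 0 of the 10 passed in limma, where 30.4% of all genes were called. There 1 gene, Socs3, had an unadjusted p below 0.05 (1.49-fold higher in CH+LIF, adjusted p = 0.0915). The mean of the 3 LIF conditions includes CH+LIF and LIF+PD, so 2i differs from it in inhibitors as well as LIF. Lifr in 2i (7.43 and 8.46 FPKM) overlapped 2i+LIF (7.49 and 7.92). Against that mean, 4 of the 10 genes were lower in 2i (Lifr, Tyk2, Stat3 and Socs3), where 20.9% of all genes were called. Lifr lost that call with any 1 culture left out (adjusted p 0.0572 to 0.220) and Tyk2 without replicate 1 or replicate 2 of 2i (up to 0.0623).

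A further 56 genes of the pathway, listed as cytokines, other receptors, other kinases, STATs and adaptors, inhibitors, and target genes, were read in the same fit. Of these, 48 passed the filter. Besides Lif, those named are the up to 8 with the largest called change in each withdrawal, and any others were named after their values were seen. Without LIF, 13 were lower and 2 higher, where 18.6% of all genes tested were called. Without CH, 5 were lower and 8 higher, and without PD 4 were lower and 10 higher, where 25.2% and 25.4% of all genes were called, so that the counts without an inhibitor were near the share among all genes.

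Target genes accounted for most of the decrease without LIF. Of 17 tested, 10 were lower and 1 was higher, where 18.6% of all genes were called, and their median log2 difference was -0.82, against 0.04 over all genes. The list was chosen with earlier results of these data known, so this is a description and not a test of the list. Bcl3, a coactivator of NF-κB that STAT3 induces, was expressed at 104 and 98.1 FPKM in 2i+LIF and at 4.19 and 2.90 in 2i, a 28.5-fold drop (adjusted p = 5.3e-05). In CH+LIF it stood at 88.0 and 128, and in LIF+PD at 62.8 and 76.8, so that only the cultures of 2i were low. Junb, an early-response AP-1 gene, went from 7.70 and 11.1 to 1.20 and 0.789 FPKM (9.41-fold, adjusted p = 0.000935). Icam1, an adhesion molecule, went from 23.9 and 27.4 to 4.13 and 4.26 (6.11-fold, adjusted p = 5.3e-05).

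The naive pluripotency factors on the target list fell as well. Gbx2 dropped from 14.9 and 13.5 to 2.65 and 2.09 FPKM (5.97-fold, adjusted p = 0.000229), Klf4 from 203 and 196 to 47.7 and 50.6 (4.06-fold, adjusted p = 0.00014), and Klf5 from 167 and 168 to 76.2 and 60.8 (2.44-fold, adjusted p = 0.000703). Tfcp2l1, Pim3, Ier3 and Sgk1 were also lower, by log2 differences of -1.03, -1.14, -0.82 and -0.52. Among the called targets the exception was Cebpd, a C/EBP transcription factor gene that is often listed as a STAT3 target. Cebpd was higher without LIF, at 0.551 and 0.251 FPKM in 2i+LIF against 2.94 and 2.18 in 2i (log2 difference 1.35, limma adjusted p = 0.00472). Of the targets not called, Myc, Mcl1, Pim2 and Cebpb had a higher mean FPKM in 2i than in 2i+LIF, and Bcl6 and Fos a lower one.

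Without CH, 5 of the 17 targets were higher and 4 lower, where 25.2% of all genes were called. Gbx2 (-2.12), Tfcp2l1 (-1.16) and Klf4 (-0.85) were lower in LIF+PD than in 2i+LIF, whereas Cebpb (1.77), Junb (0.95) and Icam1 (0.81) were higher. Icam1 reached 43.1 and 47.9 FPKM in LIF+PD, above all other cultures. Without PD, 6 were higher and 2 lower, where 25.4% of all genes were called. Myc, an ERK-responsive growth gene, rose from 8.61 and 5.31 FPKM to 45.9 and 45.6 (6.58-fold, adjusted p = 0.00235), and its values in 2i and LIF+PD were between 4.85 and 12.5. Sgk1 (0.92) was higher as well, while Pim2 was 2.12-fold lower. Junb was called in both withdrawals (0.95 and 0.82), but neither call remained without replicate 1 of 2i+LIF (adjusted p = 0.127 and 0.191). The call without CH was also lost without replicate 1 (0.102) or replicate 2 (0.0881) of LIF+PD. The call without PD was also lost without replicate 2 of CH+LIF (0.173) or either replicate of LIF+PD (0.0645 and 0.0645). The call of Pim2 was lost without replicate 1 (0.0617) or 2 (0.0627) of 2i+LIF or replicate 1 of CH+LIF (0.0778).

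Among 14 inhibitors other than Socs2 and Socs3, 0 passed in limma without LIF, where 18.6% of all genes tested were called. At an unadjusted p below 0.05, for which no share over all genes is given, 1 was higher (Ptpn11) and 1 lower (Cish). The median difference of the 14 was 0.05. Cish, the inhibitor most closely tied to STAT5, differed between the conditions with LIF. It was measured at 2.21 and 1.51 FPKM in 2i+LIF, 0.301 and 0.872 in 2i, 4.50 and 6.24 in CH+LIF, and 8.64 and 15.0 in LIF+PD. None of the 4 conditions overlapped. Cish was 6.36-fold higher without CH (log2 difference 2.13, adjusted p = 0.00311) and 2.89-fold higher without PD (1.15, adjusted p = 0.0310). The latter call was lost without either replicate of 2i+LIF (adjusted p = 0.0736 and 0.146) or of CH+LIF (0.0721 and 0.140). Compared directly, Cish was lower in 2i than in LIF+PD (log2 difference -2.99, adjusted p = 0.000658) and than in CH+LIF (-2.02, adjusted p = 0.00444). Its RefSeq window held 2 matches to TTCNNNGAA, TTCCTGGAA and TTCTTGGAA, which began at positions 1 and 12 and so did not lie before the start. Of the 56 genes, 43 had a window and 5 of these (11.6%) held a match, where 8.11% of tested genes with a window did. Besides Cish these were Icam1 (TTCCCGGAA), Bcl6, Gab1 and Sgk1, while the windows of Bcl3, Junb, Gbx2, Klf4 and Jak3 held none. Ptpn11, the phosphatase SHP2, was higher without PD (0.81, adjusted p = 0.0127), a call lost without replicate 2 of 2i+LIF (0.73, adjusted p = 0.0730) or of CH+LIF (0.74, adjusted p = 0.0655). Socs1, the inhibitor nearest to Socs3 in mechanism, was measured at 2.92 to 5.72 FPKM and was not called in any withdrawal.

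Of the other kinases, STATs and adaptors, 2 of 10 were lower without LIF and 0 were higher, which is near the 18.6% of all genes tested that were called. At an unadjusted p below 0.05 in limma, to which that share does not apply, 3 were lower (Jak3, Yes1 and Stat6) and 2 higher (Stat4 and Stat5b). Jak3 fell from 24.7 and 29.2 to 11.04 and 9.96 FPKM (2.57-fold, adjusted p = 0.000579). Yes1, a Src family kinase, fell 2.11-fold (adjusted p = 0.000267). Jak3 was thus expressed above Jak1, Jak2 and Tyk2 in all 6 cultures with LIF. Without CH, Stat4 was higher, from 2.28 and 2.58 to 6.77 and 6.14 FPKM (log2 difference 1.12, adjusted p = 0.003).

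Few of the cytokine genes were detected, since 5 of 9 did not pass the filter, Il6 and Clcf1 being listed at 0 in all cultures. Lif itself was measured at 1.97 and 2.24 FPKM in 2i+LIF, 3.09 and 2.88 in 2i, 0.803 and 2.12 in CH+LIF, and 5.47 and 7.40 in LIF+PD. It was 3.05-fold higher without CH (log2 difference 1.25, adjusted p = 0.0152), which was lost without replicate 1 (adjusted p = 0.0806) or 2 (0.0604) of 2i+LIF or replicate 2 of LIF+PD (0.0860). Without LIF the difference was 0.36 (adjusted p = 0.387). Osm, which signals through the same gp130 chain, fell from 11.4 in both cultures of 2i+LIF to 2.85 and 3.92 in 2i (log2 difference -1.52, adjusted p = 0.00271) and to 3.87 and 2.52 in CH+LIF (-1.59, adjusted p = 0.00225).

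Of 6 other receptor genes, 3 passed the filter. Il6ra, the interleukin 6 receptor chain, was at 5.27 and 5.77 FPKM in 2i+LIF, 4.26 and 4.36 in 2i, 5.47 and 5.14 in CH+LIF, but 0.991 and 0.377 in LIF+PD (log2 difference without CH -1.98, adjusted p = 0.000617). Cntfr, the receptor chain for ciliary neurotrophic factor, was higher without PD (1.24, adjusted p = 0.00546) and without LIF (0.82, adjusted p = 0.0293). The call without LIF was lost without replicate 2 of 2i+LIF (adjusted p = 0.142) or either replicate of 2i (0.116 and 0.0564).

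**Figure D3:**
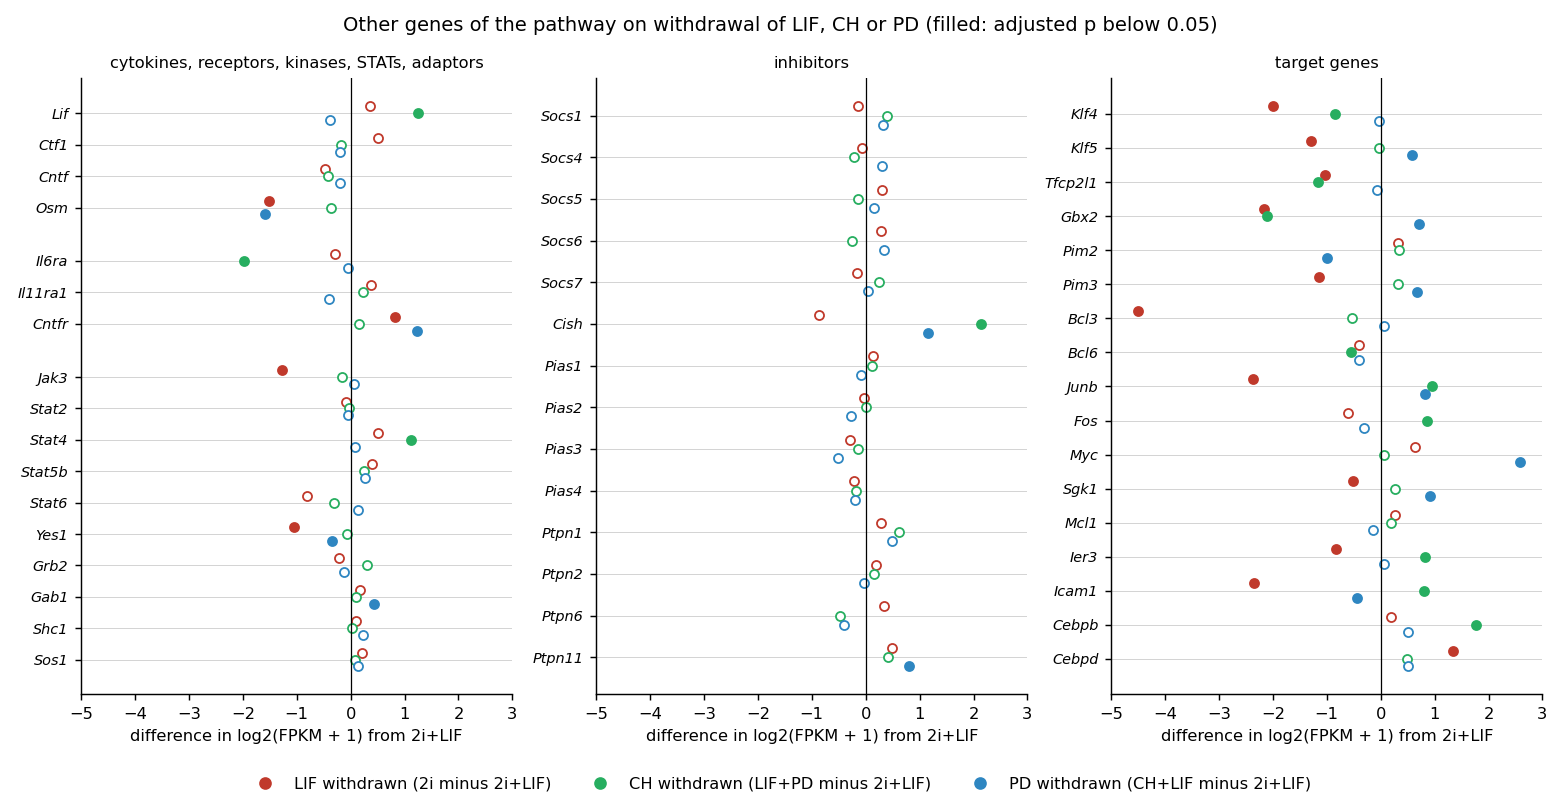
Difference in log2(FPKM + 1) from 2i+LIF (horizontal axes) for the 48 other pathway genes that passed the filter, grouped by role, with 1 point for each of the 3 withdrawals, filled where the adjusted p was below 0.05. Without LIF, 10 of the 17 target genes are filled on the left, led by Bcl3 (-4.50), and none of the 14 inhibitors is filled, where 18.6% of all genes tested were called.

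The genes whose log2(FPKM + 1) was most like that of Socs3 over the 8 cultures were Mras (r = 0.999), Emp1 (0.997), Pcolce (0.996), Bcl3 (0.991) and Jak3 (0.990), with Spearman's rho of 0.976, 0.976, 0.976, 0.738 and 0.833. Mras, a Ras-related GTPase gene, was expressed at 73.4 and 83.4 FPKM in 2i+LIF, 9.02 and 6.36 in 2i, 108 and 111 in CH+LIF, and 83.1 and 87.4 in LIF+PD. Both cultures of 2i lay far from the other 6, which sets these coefficients, so r was computed again over the 6 cultures with LIF. It was then 0.958 for Mras, 0.978 for Emp1 and 0.956 for Pcolce, and 0.545 for Bcl3 and 0.685 for Jak3. The first 3 thus followed Socs3 among the cultures with LIF more closely than the last 2. These coefficients are descriptive, since the genes were picked for their r over cultures that include these 6. The cultures of a condition are also not independent points.

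Those most like Stat3 were Irak3 (r = 0.988), Trio (0.986), Agpat2 (0.980), Triap1 (0.973) and Plekho2 (0.972), with rho between 0.833 and 0.952. Trio was near the filter, at 0.331 to 1.94 FPKM over the 8 cultures, and Plekho2 was weakly expressed, at 2.09 to 4.23. Without the 2i cultures r was 0.885 for Irak3, 0.807 for Trio and 0.648 to 0.665 for the other 3. Irak3, which restrains Toll-like receptor signalling, stood at 9.04 FPKM in the replicate of 2i where Stat3 was at 9.69 and at 14.8 where Stat3 was at 17.1. Of the 2i cultures, Stat3 was higher in replicate 2 and Socs3 in replicate 1.

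**Figure D4:**
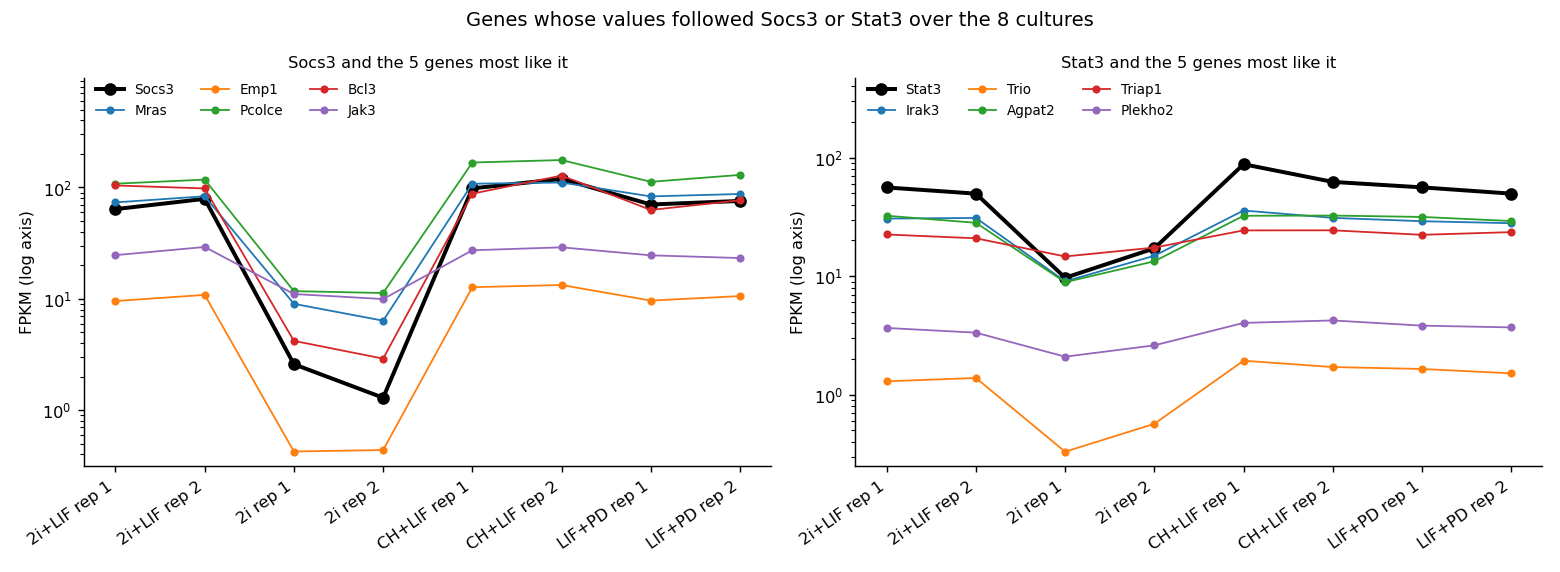
FPKM (vertical axes, logarithmic) in the 8 cultures (horizontal axes, by condition and replicate) of Socs3 and Stat3 (thick lines) and of the 5 genes most like each (thin lines). All fall in the 2 cultures of 2i, Socs3 to 2.59 and 1.29 FPKM and Stat3 to 9.69 and 17.1, while in the 6 cultures with LIF the lines differ less.

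In the 6 cultures with LIF, Il6st, Stat3, Socs2, Socs3 and Pim1 were never below 36.5 FPKM, and Lifr, Jak1, Jak2, Tyk2 and Stat5a never above 14.6. In 2i, Socs3 (2.59 and 1.29 FPKM) was close to Stat5a (1.34 and 1.59), and the Stat3 values (9.69 and 17.1) lay on either side of those of Jak1 (12.5 and 11.9).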

How the data were processed

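RNA-seq was made from 8 cultures of RGd2 mouse ESCs, with 2 per condition. Single-end reads were aligned by the authors with tophat2 to mm10 (GRCm38) under Ensembl 75 annotation, keeping unique alignments, and per culture the authors deposited FPKM values per gene with a low and a high bound of unstated level. The submitters' processing notes name TopHat2, Cufflinks and Cuffdiff. Libraries are called rRNA-depleted in the methods and polyA in the labels. The read counts that the methods describe were not used here, so depth is known only in relative terms and no counting error is given.

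Entries that repeated an identifier (22) were summed. Values were tested as log2(FPKM + 1) with limma 3.58.1 (mean-variance trend) in R 4.3.3. The 4 conditions entered a single fit without further scaling, which left 4 residual degrees of freedom, with Benjamini-Hochberg adjustment over 12927 genes. Withdrawal of LIF, CH and PD was 2i, LIF+PD and CH+LIF minus 2i+LIF. For LIF this is only a name, since the cells came from 2i and LIF was not removed. The procedure was tested on simulated data. Likeness was Pearson's r of log2(FPKM + 1) over the 8 cultures, and the 5 highest genes were named. Pathway genes were named as the up to 8 with the largest called difference and no overlap in each withdrawal, plus Lif, and 1 gene of the pathway list is not reported here. The members and lists were chosen with earlier results of these data known. Alternatives were other pseudocounts (0.1 and 5), other filters, TPM, median-of-ratios and quantile scaling, no trend, a replicate block, only the groups compared, and each culture left out. Promoter windows came from RefSeq (GRCm38.p6), and figures were drawn with matplotlib 3.10.9.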

Additional observations from a re-analysis of the deposited data

How the results depend on the processing

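The drop of Socs3 and Stat3 in 2i, against each of the other conditions, was called under every alternative run. So were the drop of Tyk2 on withdrawal of LIF, the rise of Lifr on withdrawal of CH, and the lower Lifr in 2i than in LIF+PD. Across the values of single genes, 1857 of 2048 alternative values kept direction and call, 128 lost and 25 gained a call, and 38 turned sign, none of the last being called. FPKM without counts, 2 cultures per condition and the low depth of replicate 1 of 2i limit what can be resolved, and where an arm is left with 1 culture it is assumed to vary like the others. The causes of the changes below were not tested.

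Taken over 12927 genes, same-numbered replicates did not deviate together (correlations -0.03 to 0.09), although Pim1 was higher in replicate 1 than in replicate 2 of every condition. With a replicate block, 3 of the 10 genes passed without CH (adding Pim1), 2 without PD (adding Pim1) and 5 between 2i and LIF+PD (adding Pim1 and Stat5a). Without PD, 2 also passed with a pseudocount of 5, under TPM (both adding Socs3) and under quantile scaling (adding Pim1). Without CH, 1 passed under TPM and with only the groups compared, since Tyk2 was lost. Other calls were lost too. With no filter these were Jak2 and Stat5a between 2i and CH+LIF, Lifr against the LIF mean, Cntfr without LIF, Junb without CH and without PD, and Cish without PD. Under TPM they were Jak2 between 2i and CH+LIF, Lifr against the LIF mean, and Yes1 and Icam1 without PD, and under quantile scaling Jak2 between 2i and CH+LIF (adjusted p = 0.0605). With a pseudocount of 0.1 Junb (0.0558) and Cish without PD were lost, and with 5 Cish. With only the groups compared, Lifr, Jak2, Tyk2 and Stat5a between 2i and CH+LIF, Cntfr without LIF, and Junb (0.0835) and Icam1 without PD were lost. Bcl6 without CH was lost with a pseudocount of 0.1, with no filter and under TPM. Cish between CH+LIF and LIF+PD was lost with a pseudocount of 0.1, with no filter, under TPM, median-of-ratios and quantile scaling, without the trend, and with only the groups compared (adjusted p 0.0513 to 0.123). Without LIF, Pim1 was lost with no filter (adjusted p = 0.0719) and with only the groups compared (0.0841). With only the groups compared, 2 of the 10 passed between 2i and CH+LIF, and all genes called numbered 1500 without LIF (2408 in the shared fit) and 1808 between 2i and CH+LIF (3089). Between CH+LIF and LIF+PD, 1 passed with a pseudocount of 5 and with only the groups compared (Socs3) and 1 under quantile scaling (Tyk2). That fit was not run for 2i against the mean of the 3 LIF conditions. TPM raised the share of calls that were higher from 58.6% to 74.8% without CH and from 47.9% to 74.1% without PD, and lowered it from 55.5% to 35.9% between 2i and CH+LIF.

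Uncalled log2 differences near 0 changed sign. Without LIF, Lifr was -0.0084 under median-of-ratios and -0.024 under quantile scaling. Without CH, median-of-ratios scaling gave -0.048 for Stat3, -0.022 for Socs2 and -0.0125 for Socs3, and quantile scaling -0.016 for Jak2 and -0.0070 for Stat3. Without PD, TPM gave 0.093 for Il6st and 0.17 for Jak1, and quantile scaling 0.0095 for Jak1.

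With each culture left out in turn, the number of the 10 genes called ranged from 1 to 2 without CH, 0 to 3 without PD, 2 to 5 for 2i against CH+LIF, 0 to 1 for CH+LIF against LIF+PD and 2 to 3 for 2i against the LIF mean. All genes called ranged from 1167 to 2141 without LIF, 1687 to 3342 without CH, 1520 to 3330 without PD, 1970 to 2966 for 2i against LIF+PD, 1494 to 2705 for 2i against CH+LIF, 2311 to 3991 for CH+LIF against LIF+PD and 1325 to 2205 for 2i against the LIF mean. The difference of Il6st ranged from -0.26 to 1.19 without LIF, -0.28 to 0.39 without CH, -0.71 to 0.50 without PD, -0.31 to 1.14 for 2i against LIF+PD, -0.15 to 1.30 against CH+LIF and -0.24 to 1.21 against the LIF mean, and from -0.77 to 0.45 for CH+LIF against LIF+PD. That of Socs2 ranged from -0.17 to 0.37 without LIF, -0.24 to 0.30 without CH, -0.10 to 0.24 for 2i against LIF+PD and -0.22 to 0.12 against the LIF mean. Lifr ranged from -0.045 to 0.12 without LIF. Without CH, Jak2 ranged from -0.037 to 0.25, Stat3 from -0.085 to 0.087 and Socs3 from -0.11 to 0.19. Pim1 ranged from -0.51 to 0.023 for 2i against CH+LIF, and Stat5a from -0.063 to 0.15 for CH+LIF against LIF+PD.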
